A study of Homo sapiens with 19 samples.

Results

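The genes described here encode the enzymes, transporters and regulators by which liver cells make, conjugate and export bile acids and clear drugs. They were taken from a list of 42 symbols grouped by function, and 38 of them were found among the 25579 genes measured in HepG2, a human liver cancer line. The other 4 (AMACR, CYP2C19, CYP3A7 and NR1I2) were not analysed here. The study lowered YAP1 and WWTR1 (the gene of TAZ), the paralogous coactivators at the end of the Hippo pathway, with small interfering RNAs (siRNAs), and asks what each of them, and both together, do to gene expression. RNA was taken 24 h after transfection and hybridised to Affymetrix arrays.

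Every group is the same parental line, grown without further treatment, so by the labels the groups differ in the transfected siRNA and its dose. A nonsense siRNA (vector allstar) was used for 3 control arrays. For YAP1 there were 3 arrays of siYAP1 and 3 of siYAP2, independent siRNAs to the same gene at 20 nM. For WWTR1 there were 3 arrays of siTAZ2 and 2 of siTAZ3, also at 20 nM. The combined groups, siTAZ2_siYAP1 with 3 arrays and siTAZ3_siYAP2 with 2, received 40 nM in total. The dose of the control siRNA can be read as 20 nM or 40 nM. The labels do not say that arrays of a group came from separate cultures, so the p-values measure only how far these samples scatter, and that scatter may be technical. Control, siYAP1 and siYAP2 arrays belong also to an earlier deposit, while all arrays with a TAZ siRNA do not. Deposit and TAZ knockdown therefore cannot be told apart in any comparison of TAZ or combined groups with control, siYAP1 or siYAP2. The combined groups against the TAZ groups stay within the later deposit. HepG2 keeps part of the hepatocyte program only, which limits it as a model of drug metabolism in liver.

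Values are log2 intensities after RMA, all 19 arrays on one scale, and a difference of 1 is a 2-fold change. The knockdown was present in every group. YAP1 was left at 15.1% and 15.3% of its control level with siYAP1 and siYAP2 and at 20.2% and 23.4% in the combined groups, and WWTR1 was left at 16.8% and 11.9% with siTAZ2 and siTAZ3 and at 19.7% and 10.5% in the combined groups. The gene not targeted was lower too in the single groups. WWTR1 stood at 76.5% and 79.7% of control with siYAP1 and siYAP2, and YAP1 at 84.7% and 75.4% with siTAZ2 and siTAZ3. All 9 hepatocyte markers examined stood above background, with ALB between 13.2 and 13.3 in the group means, whereas 4 of 4 endothelial, 4 of 5 stellate and 3 of 5 blood cell markers did not (PTPRC, 3.41 to 3.49; the exceptions were COL1A1, CD79A and LYZ). Of 4 cholangiocyte markers 3 were above background, KRT19 (9.92 to 10.5), SOX9 (10.4 to 10.7) and EPCAM (11.2 to 11.5), and KRT7 was not. The mean of the hepatocyte markers moved with the groups, from 11.9 on each control and siYAP1 array to between 12.0 and 12.1 on the siYAP2, siTAZ3 and combined arrays, with the siTAZ2 arrays between 11.9 and 12.1, and its part in the results was not tested. The array labelled siTAZ2 replicate 3 stood apart: over all genes it correlated with the rest at a median of 0.987, where the other 18 arrays reached at least 0.993, and 13 of the 38 genes had their highest or lowest value of all 19 arrays on it. Results are therefore given with and without it. The fit pooled the spread of each gene over all groups. In a comparison that does not use siTAZ2, leaving this array out changes the spread and the adjusted p, and not the log2 difference.

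Bile acids are made from cholesterol by cytochrome P450 enzymes, joined to glycine or taurine and pumped out of the cell, and they repress their own synthesis through the receptor FXR and its target NR0B2 (SHP). Drugs are cleared by a related machinery: CYPs of families 1 to 3 oxidise them, UDP-glucuronosyltransferases (UGTs), sulfotransferases and glutathione transferases attach polar groups, and ABC transporters export the products. The xenobiotic sensors CAR (NR1I3) and AHR switch many of these genes on, and POR hands electrons to the CYPs.

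Among the genes that separated the groups, 5 are shown by the 250 bases before their annotated start (RefSeq, GRCh38.p14), because 3 of them (UGT2B10, SULT2A1 and SULT1E1) rose in the combined groups and 2 (ABCG2 and SLC51B) separated siRNAs against the same gene. Capitals mark the matches, on either strand, to the TEAD core GGAATG (TEAD factors carry YAP and TAZ to DNA; CATTCC on the other strand), the dioxin response element core GCGTG, which AHR recognises, and the nuclear receptor hexamer AGGTCA. The motifs do not overlap each other here.
UGT2B10 (chr4:68815744-68815993, plus strand): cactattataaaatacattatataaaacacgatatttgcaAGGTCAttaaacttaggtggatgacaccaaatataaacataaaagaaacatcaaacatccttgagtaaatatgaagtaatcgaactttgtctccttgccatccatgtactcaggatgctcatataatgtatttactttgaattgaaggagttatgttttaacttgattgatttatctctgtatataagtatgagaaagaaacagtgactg
SULT2A1 (chr19:47886316-47886565, minus strand): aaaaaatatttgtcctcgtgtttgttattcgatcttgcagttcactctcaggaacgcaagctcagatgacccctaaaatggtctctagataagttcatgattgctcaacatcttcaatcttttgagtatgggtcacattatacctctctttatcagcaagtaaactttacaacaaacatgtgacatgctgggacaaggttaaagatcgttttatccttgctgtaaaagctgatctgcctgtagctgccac
SULT1E1 (chr4:69860146-69860395, minus strand): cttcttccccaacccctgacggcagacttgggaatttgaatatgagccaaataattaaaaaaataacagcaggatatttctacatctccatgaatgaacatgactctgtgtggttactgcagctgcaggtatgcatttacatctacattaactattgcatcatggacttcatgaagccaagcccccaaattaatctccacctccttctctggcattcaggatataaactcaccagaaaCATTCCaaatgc
ABCG2 (chr4:88231627-88231876, minus strand): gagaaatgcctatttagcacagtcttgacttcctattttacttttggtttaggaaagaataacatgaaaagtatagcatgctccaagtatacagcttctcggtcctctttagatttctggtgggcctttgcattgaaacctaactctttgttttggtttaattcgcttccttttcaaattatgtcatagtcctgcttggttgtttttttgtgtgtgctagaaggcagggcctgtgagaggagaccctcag
SLC51B (chr15:65045137-65045386, plus strand): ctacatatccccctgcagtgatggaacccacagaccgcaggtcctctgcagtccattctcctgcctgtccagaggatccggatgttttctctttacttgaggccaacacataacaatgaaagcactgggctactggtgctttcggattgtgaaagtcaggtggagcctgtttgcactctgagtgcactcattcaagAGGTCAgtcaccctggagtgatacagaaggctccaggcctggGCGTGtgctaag
UGT2B10 holds a nuclear receptor hexamer with its first base at position -210 from the start. SULT1E1 holds a TEAD core on the other strand at position -12. SLC51B holds a nuclear receptor hexamer at position -54 and a dioxin response element core at position -12. SULT2A1 and ABCG2 hold none of these letters in this window. Of the 26 listed genes with an entry in the promoter table, 3 hold a TEAD core, 3 a dioxin response element core and 7 a nuclear receptor hexamer. Over 27305 promoters of the same length the shares were 11.9%, 31.9% and 12.1%. A match is a description of letters and not of binding.

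Of the 38 genes, 13 were not shown above background in any group, since their group means stayed under 4.74, the 95th percentile of the levels of 354 olfactory receptor genes. They include the enzymes that open and steer bile acid synthesis (CYP7A1, the rate-limiting enzyme of the classical pathway; CYP7B1 and CYP8B1), the feedback hormone FGF19, UGT2B4, UGT2B15, most of the major adult drug-oxidising enzymes on the list (CYP1A2, CYP2B6, CYP2C8, CYP2E1 and CYP3A4, with CYP1B1) and the sensor NR1I3. CYP3A4, the main drug-oxidising CYP of adult liver, lay between 3.37 and 3.87 on the 19 arrays, and CYP7A1 between 3.55 and 3.81. The other 25 genes were above background in some group, and 8 of these passed the test in at least 1 of 16 comparisons. The test was limma's moderated test with Benjamini-Hochberg adjustment over all 25579 genes, and a gene passed when its adjusted p was under 0.05.

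Most of the genes that passed against control were higher after knockdown. With YAP siRNAs 1 of the 38 genes rose (2.63%, against 1.73% of all genes called in either direction), namely UGT2B10. After TAZ knockdown 3 rose (7.89%, against 1.97% of all genes), which were UGT2B10, ABCB1 and SULT2A1. In the combined groups 5 rose and none fell (13.2%, against 2.59% of all genes): these 3 together with SULT1E1 and NR0B2. The median log2 difference of the 38 genes was 0.05 for YAP, 0.06 for TAZ and 0.13 for the combined groups, where the median of all genes lay at 0.00 in each. Without the array labelled siTAZ2 replicate 3 the counts were 5 of 38 for YAP (4 higher, 1 lower; 4.47% of all genes), 4 for TAZ (4.69%) and 9 for the combined groups (8 higher, 1 lower; 6.17%). The genes added were ABCB1, SULT2A1 and CYP1A1 (higher) and ABCG2 (lower) for YAP, GSTA2 for TAZ, and SLC51B, CYP1A1 and GSTA2 (higher) and ABCG2 (lower) for the combined groups. Some of these averages joined siRNAs or pairs that differed. With control, siYAP1 and siYAP2 the group means were 8.24, 8.49 and 7.45 for ABCG2, and 9.44, 9.42 and 10.04 for SULT2A1. In siTAZ2_siYAP1 and siTAZ3_siYAP2, ABCG2 stood at 8.27 and 7.51. SLC51B stood there at 7.25 and 8.33, against 7.45 with control. For the other added genes both siRNAs or pairs lay on the same side of control. The first 3 comparisons share the control arrays, so their calls are not independent of each other. The 38 genes were chosen with earlier results of these data known, so a share above that of all genes is a description and not a test.

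Taken singly against control, siYAP1 called 1 of the 38 genes (0.88% of all genes called), siYAP2 5 (3 higher, 2 lower; 3.72%), siTAZ2 4 (2.37%), siTAZ3 1 (1.16%), siTAZ2_siYAP1 4 (2.44%) and siTAZ3_siYAP2 5 (4 higher, 1 lower; 2.66%). Without the array labelled siTAZ2 replicate 3 the counts were 2 for siYAP1 (2.47% of all genes), 6 for siYAP2 (7.08%), 5 for siTAZ2 (5.1%), 4 for siTAZ3 (3.55%), 7 for siTAZ2_siYAP1 (6.05%) and 9 for siTAZ3_siYAP2 (5.7%). UGT2B10 is the 1 gene called with all 6.

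**Figure D1:**
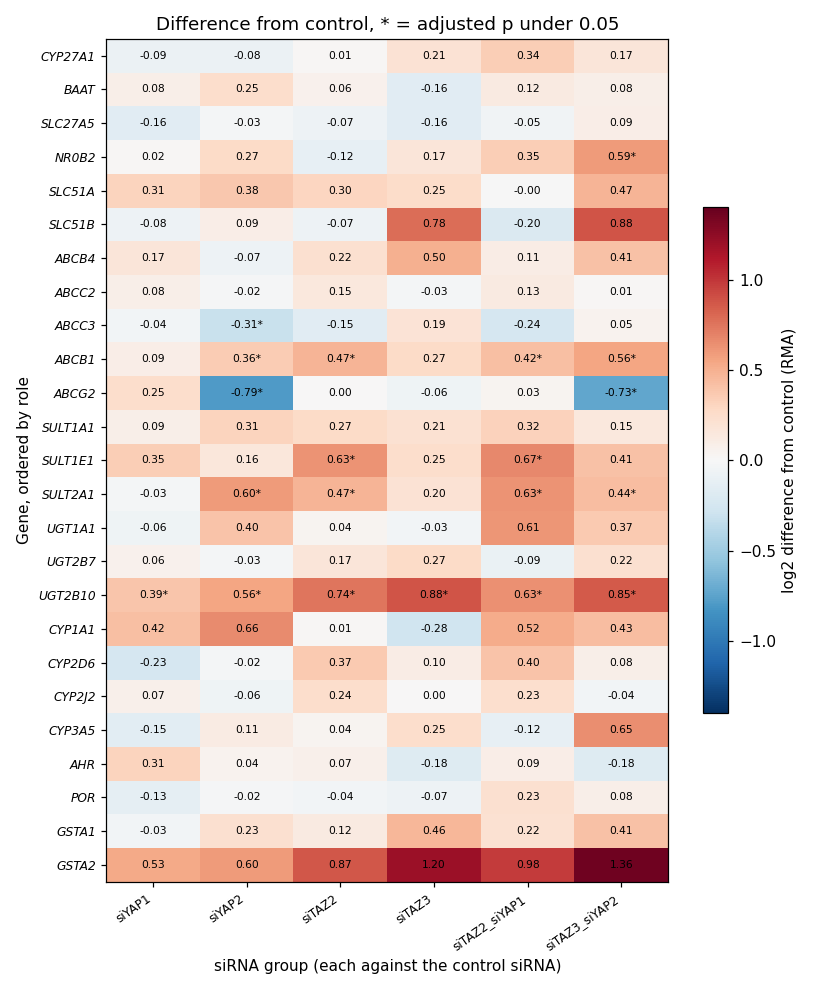
Log2 difference from the control siRNA (colour and printed value) for the 25 genes above background, in rows by role, in each of the 6 siRNA groups, in columns; an asterisk marks an adjusted p under 0.05. UGT2B10 carries an asterisk in all 6 columns, while ABCG2 is lower in the 2 columns that contain siYAP2.

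UGT2B10, which glucuronidates nicotine and tertiary amine drugs on their nitrogen, gave the steadiest response. It read 10.12, 10.29 and 10.24 on the control arrays, 10.48, 10.59 and 10.74 with siYAP1, and 10.72, 10.80 and 10.81 with siYAP2. With siTAZ2 it read 10.88, 10.87 and 11.13, with siTAZ3 11.07 and 11.12, with siTAZ2_siYAP1 10.83, 10.84 and 10.88, and with siTAZ3_siYAP2 11.01 and 11.14. Every knockdown array lay above every control array, and every array with a TAZ siRNA lay above every array with a YAP siRNA alone. The latter order is also a split by deposit and cannot be told apart from it, and the closest readings were 10.83 and 10.81. The mean rose by 0.47 on the log2 scale with YAP siRNAs (SE 0.069, 1.39-fold, limma adjusted p = 0.00144), by 0.81 with TAZ siRNAs (SE 0.072, 1.75-fold, limma adjusted p = 2.18e-05) and by 0.74 in the combined groups (SE 0.072, 1.67-fold, limma adjusted p = 2.52e-05). It also passed with each siRNA or pair taken singly, from 0.39 with siYAP1 (limma adjusted p = 0.0309) to 0.88 with siTAZ3 (limma adjusted p = 0.000123). The siYAP1 call was lost without control replicate 1, 2 or 3, siYAP1 replicate 2 or 3 or siTAZ2_siYAP1 replicate 2 (limma adjusted p from 0.0509 to 0.166). With only the groups compared in the fit, the limma adjusted p was 0.134 for siYAP1 and 0.0719 for siTAZ2.

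The 2B family holds close copies that could share a probe set. Readings of such copies do not show which transcripts the UGT2B10 probe set detects, and UGT2B11 is not among those given here. UGT2B17 and UGT2B28, whose group means were 3.28 to 3.34 and 3.37 to 3.47, were not above background, and neither was UGT2B15. UGT2B7, which glucuronidates morphine and many acidic drugs, had group means from 5.84 to 6.20 and passed in no comparison. UGT1A1, the enzyme that clears bilirubin, ranged from 7.10 to 8.65 over the arrays. Its difference in the combined groups was 0.49 (95% interval -0.04 to 1.03, limma adjusted p = 0.505).

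SULT2A1, the sulfotransferase of DHEA and bile acids, was high with some siRNAs and at the control level with siYAP1. It read 9.38, 9.50 and 9.46 on the control arrays, 9.43, 9.44 and 9.38 with siYAP1 and 9.94, 10.12 and 10.07 with siYAP2. The siTAZ2 arrays gave 10.01, 10.06 and 9.68, with siTAZ3 9.58 and 9.70, with siTAZ2_siYAP1 10.03, 10.13 and 10.05, and with siTAZ3_siYAP2 9.77 and 9.99. Only the siYAP1 arrays overlapped the control arrays. The rise was 0.53 in the combined groups (SE 0.081, 1.45-fold, limma adjusted p = 0.00156), 0.60 with siYAP2 (limma adjusted p = 0.000754) and 0.47 with siTAZ2 (limma adjusted p = 0.011; 0.0645 without control replicate 1 and 0.254 with only these groups fitted). With both TAZ siRNAs averaged the rise of 0.33 passed narrowly (limma adjusted p = 0.048) and held in 3 of the 19 fits that leave out 1 array each. These were the fits without siTAZ2 replicate 3 (limma adjusted p = 0.00151) and without either siTAZ3_siYAP2 array. In the other 16 the limma adjusted p lay between 0.0542 and 0.239, the highest without control replicate 1, and it missed the threshold too with an intensity trend, without the dimmest genes, after cyclic loess and with only the groups compared (0.0515 to 0.289).

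SULT1E1, which sulfates and so inactivates oestrogens, read 6.0, 6.11 and 6.18 on the control arrays, 6.38, 6.38 and 6.59 with siYAP1 and 6.02, 6.50 and 6.27 with siYAP2. It read 6.63, 6.81 and 6.73 with siTAZ2, 6.14 and 6.55 with siTAZ3, 6.54, 6.92 and 6.84 with siTAZ2_siYAP1, and 6.58 and 6.42 with siTAZ3_siYAP2. All 5 combined arrays lay above the control arrays, and the highest group means were those of siTAZ2 and siTAZ2_siYAP1. The gene rose by 0.54 in the combined groups (SE 0.12, 1.45-fold, limma adjusted p = 0.0209) and by 0.63 with siTAZ2 (limma adjusted p = 0.0193). The combined call was lost without control replicate 1, 2 or 3, siTAZ2_siYAP1 replicate 2 or siTAZ3_siYAP2 replicate 1 (limma adjusted p from 0.0501 to 0.124), and the siTAZ2 call without control replicate 1 or 2 or siTAZ2 replicate 2 (0.0636 to 0.0965) or with only the groups compared (0.0719). SULT1A1, the main phenol sulfotransferase, lay between 5.43 and 6.21 and passed in no comparison.

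Among the exporters, ABCB1 (P-glycoprotein, the multidrug efflux pump) was higher with siYAP2 and in the groups with a TAZ siRNA, and little above control with siYAP1. It read 9.62, 9.56 and 9.64 on the control arrays, 9.62, 9.72 and 9.75 with siYAP1 and 9.97, 9.87 and 10.04 with siYAP2. Under siTAZ2 the values were 10.01, 9.91 and 10.32, with siTAZ3 9.83 and 9.92, with siTAZ2_siYAP1 10.04, 10.03 and 10.01, and with siTAZ3_siYAP2 10.11 and 10.22. No array with siYAP2 or a TAZ siRNA overlapped the control arrays. ABCB1 rose by 0.37 with TAZ siRNAs (SE 0.076, 1.29-fold, limma adjusted p = 0.0198) and by 0.49 in the combined groups (SE 0.076, limma adjusted p = 0.0018). The TAZ call was lost without control replicate 1, 2 or 3 or siTAZ3 replicate 2 (limma adjusted p from 0.0678 to 0.106), and with the TAZ and control arrays fitted alone (0.22). For YAP siRNAs the difference was 0.22 (limma adjusted p = 0.209, and 0.0187 without the array labelled siTAZ2 replicate 3). Taken singly, siYAP2 passed against control (limma adjusted p = 0.0268) and siYAP1 did not. The siYAP2 call was lost in 5 of the 19 fits that leave out 1 array. ABCB4, the phospholipid pump of the canalicular membrane and the neighbour of ABCB1 on the chromosome, was 0.36 above control with TAZ siRNAs (limma adjusted p = 0.129).

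**Figure D2:**
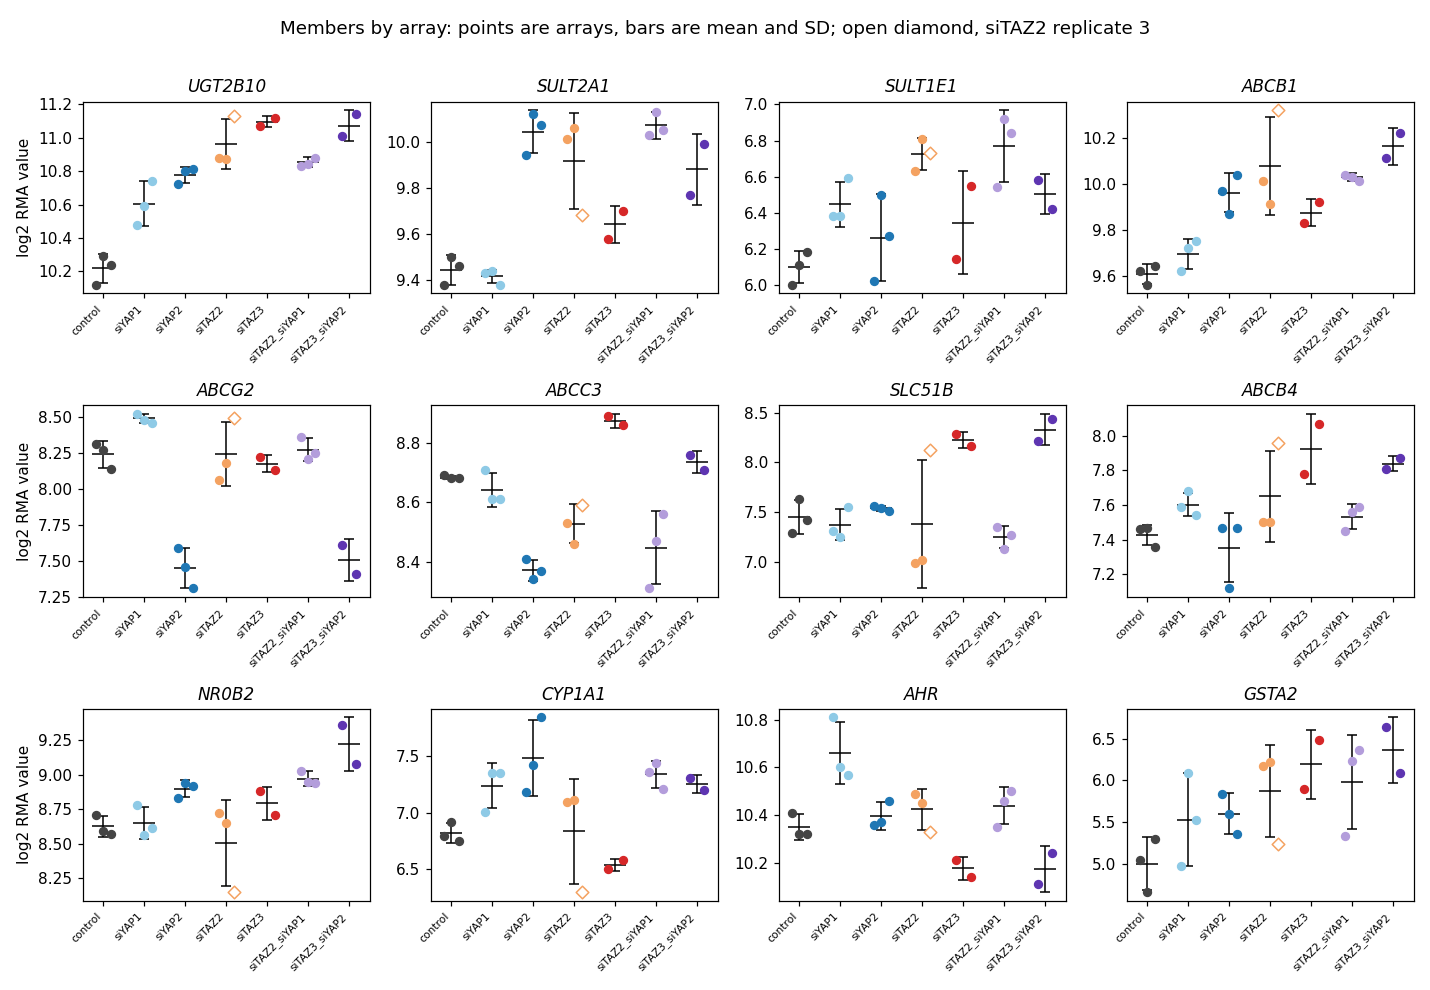
Log2 RMA value (vertical axis) of 12 genes on each array, grouped by siRNA (horizontal axis); points are arrays, bars give the mean and SD, and the open diamond is the array labelled siTAZ2 replicate 3. UGT2B10 is above control in all 6 knockdown groups, ABCG2 is low in the 2 groups with siYAP2, and SLC51B is high in the 2 groups with siTAZ3 and on the open diamond.

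ABCG2 (BCRP, an efflux pump for many drugs and for urate) followed one YAP siRNA and not the other. It read 8.31, 8.27 and 8.14 on the control arrays, 8.52, 8.48 and 8.46 with siYAP1 and 7.59, 7.46 and 7.31 with siYAP2. Its siTAZ2 readings were 8.06, 8.18 and 8.49, with siTAZ3 8.22 and 8.13, with siTAZ2_siYAP1 8.36, 8.21 and 8.25, and with siTAZ3_siYAP2 7.61 and 7.41. The 5 arrays that received siYAP2 lay below each of the other 14. ABCG2 was 1.04 lower on the log2 scale with siYAP2 than with siYAP1 (log2 difference -1.04, SE 0.10, 2.05-fold, limma adjusted p = 7.43e-06), although both left YAP1 at about 15% of control. Part of this gap lay above control, since the group means were 8.24 with control, 8.49 with siYAP1 and 7.45 with siYAP2. The fall with siYAP2 against control passed too (limma adjusted p = 0.000156), and the rise with siYAP1 did not. On separate arrays of the later deposit, siTAZ3_siYAP2 lay below siTAZ2_siYAP1 (log2 difference -0.76, SE 0.11, limma adjusted p = 0.00111) and below siTAZ3 alone (log2 difference -0.67, SE 0.12, limma adjusted p = 0.0179). The call against siTAZ3 was lost without siTAZ3 replicate 1 or 2 or siTAZ3_siYAP2 replicate 2 (limma adjusted p from 0.138 to 0.308) and with only these groups fitted (0.297). In siTAZ2_siYAP1 against siTAZ2 the difference was 0.03 (95% interval -0.18 to 0.25, limma adjusted p = 0.953).

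SLC51B, a subunit of the basolateral bile acid exporter OST and a target of FXR, had its highest values on the arrays with siTAZ3. It read 7.29, 7.63 and 7.42 on the control arrays, 7.31, 7.25 and 7.55 with siYAP1 and 7.56, 7.54 and 7.51 with siYAP2. With siTAZ2 it read 6.99, 7.02 and 8.13, with siTAZ3 8.29 and 8.17, with siTAZ2_siYAP1 7.35, 7.13 and 7.27, and with siTAZ3_siYAP2 8.22 and 8.44. The 4 arrays with siTAZ3 were the highest of all, followed by the array labelled siTAZ2 replicate 3, whose group partners were the lowest. The siTAZ3_siYAP2 pair exceeded siTAZ2_siYAP1 by 1.08 (SE 0.24, 2.12-fold, limma adjusted p = 0.0236), a call lost without any 1 of the 5 arrays compared (limma adjusted p from 0.0518 to 0.213). For siTAZ3 against siTAZ2 the difference was 0.85 (limma adjusted p = 0.153), and 1.22 without the array labelled siTAZ2 replicate 3 (limma adjusted p = 1.09e-05). Against control SLC51B did not pass with all 19 arrays, at 0.78 with siTAZ3 (limma adjusted p = 0.186, and 0.000507 with the array labelled siTAZ2 replicate 3 left out) and at 0.88 with siTAZ3_siYAP2 (0.0699, and 9.28e-05 with it left out). SLC51A, the other subunit of the exporter, stayed between 4.44 and 5.41 and passed in no comparison.

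ABCC3 (MRP3, which exports glucuronides to the blood) moved less, and with several siRNAs in different directions. It read 8.69, 8.68 and 8.68 on the control arrays, 8.71, 8.61 and 8.61 with siYAP1 and 8.41, 8.34 and 8.37 with siYAP2. The siTAZ2 arrays gave 8.53, 8.46 and 8.59, with siTAZ3 8.89 and 8.86, with siTAZ2_siYAP1 8.31, 8.47 and 8.56, and with siTAZ3_siYAP2 8.76 and 8.71. The control arrays spanned only 8.68 to 8.69. All siYAP2, siTAZ2 and siTAZ2_siYAP1 arrays lay under them, and all siTAZ3 and siTAZ3_siYAP2 arrays lay above them. ABCC3 was lower with siYAP2 than with siYAP1 (log2 difference -0.27, SE 0.061, limma adjusted p = 0.0152) and than control (log2 difference -0.31, limma adjusted p = 0.00679), and higher with siTAZ3 than with siTAZ2 (0.35, SE 0.069, limma adjusted p = 0.0273). The first of these was lost without siYAP1 replicate 1 or siYAP2 replicate 2 or 3 (limma adjusted p from 0.0563 to 0.0758) and the third without siTAZ2 replicate 1 or 2 or siTAZ3 replicate 1 or 2 (0.0671 to 0.298). The difference of 0.29 between the combined pairs (limma adjusted p = 0.0355) was lost in 11 of the 19 fits that leave out 1 array (0.0501 to 0.233), the highest without siTAZ3_siYAP2 replicate 1. All 3 calls between siRNAs were also lost with an intensity trend (0.0535, 0.0869 and 0.108) and with only the groups compared (0.0522, 0.736 and 0.25). ABCC2 (MRP2), the canalicular exporter of bilirubin glucuronides, was the most even of the exporters, between 11.67 and 11.96 on all arrays.

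Between siRNAs of 1 target, the genes that passed were exporters and SULT2A1. For siYAP2 against siYAP1, 3 of 38 passed (SULT2A1 higher, ABCG2 and ABCC3 lower; 7.89%, against 4.83% of all genes), for siTAZ3 against siTAZ2 1 passed (ABCC3; 2.63%, against 0.813%), and for siTAZ3_siYAP2 against siTAZ2_siYAP1 3 passed (SLC51B and ABCC3 higher, ABCG2 lower; 7.89%, against 2.48%). Without the array labelled siTAZ2 replicate 3 these counts were 5, 4 and 4, against 8.49%, 4.32% and 5.88% of all genes. The genes added were ABCB1 (0.27, limma adjusted p = 0.00826) and AHR (log2 difference -0.26, limma adjusted p = 0.0251) between the YAP siRNAs and CYP3A5 (0.76, limma adjusted p = 0.0108) between the pairs. In siTAZ3 against siTAZ2 they were SLC51B, ABCB4 (0.43, limma adjusted p = 0.0443) and SULT2A1 (log2 difference -0.39, limma adjusted p = 0.00971). A missed threshold did not show that siRNAs acted alike: for UGT2B10 the 95% interval of siYAP2 minus siYAP1 ran from -0.00 to 0.34, and for NR0B2 from -0.01 to 0.51.

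**Figure D3:**
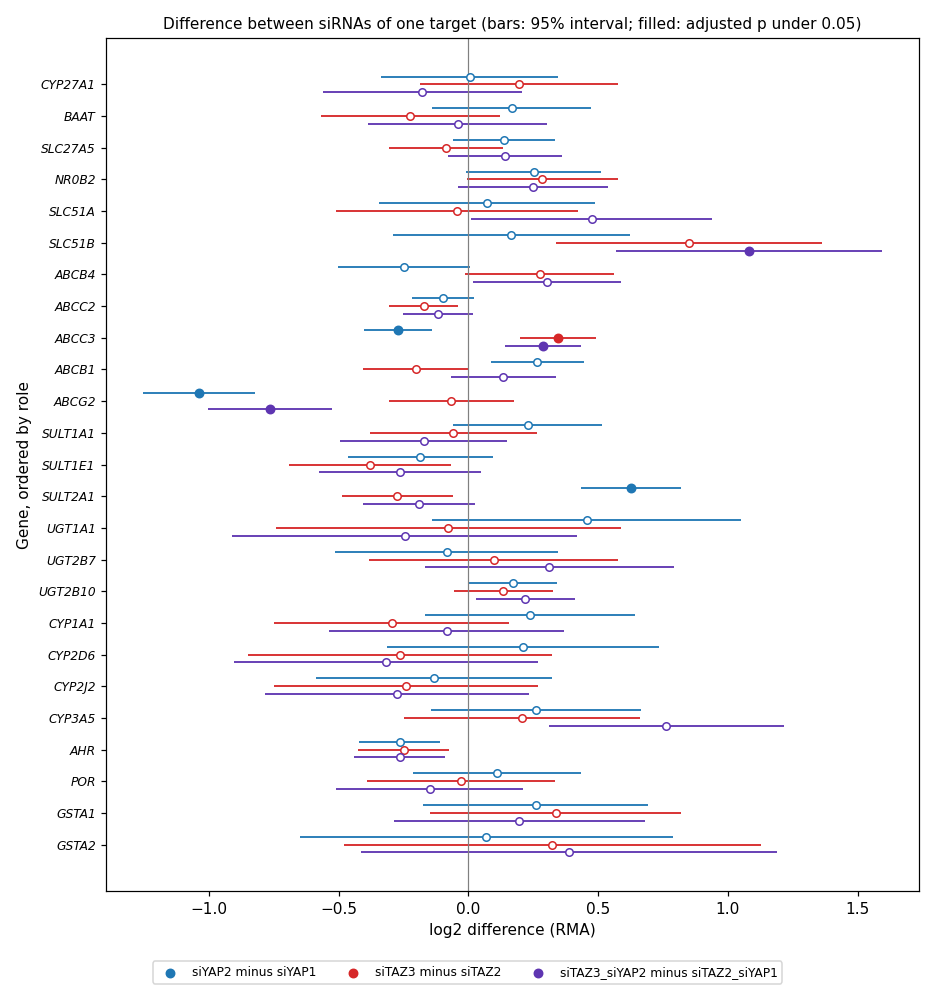
Log2 difference (horizontal axis) between siRNAs of the same target for the 25 genes above background (vertical axis, by role), with 95% intervals; filled points have an adjusted p under 0.05. ABCG2 stands at -1.04 for siYAP2 minus siYAP1 and at -0.76 between the combined pairs, and SLC51B at 1.08 between the combined pairs.

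NR0B2 (SHP), the nuclear receptor that relays bile acid feedback on CYP7A1, was highest when both coactivators were lowered. It read 8.71, 8.59 and 8.57 on the control arrays, 8.78, 8.56 and 8.61 with siYAP1 and 8.83, 8.94 and 8.92 with siYAP2. Under siTAZ2 the values were 8.72, 8.65 and 8.15, with siTAZ3 8.88 and 8.71, with siTAZ2_siYAP1 9.03, 8.95 and 8.94, and with siTAZ3_siYAP2 9.36 and 9.08. All 5 combined arrays lay above all control and all TAZ arrays, but siYAP2 alone (group mean 8.90) came near siTAZ2_siYAP1 (8.97). Taken singly against control with all 19 arrays, siTAZ3_siYAP2 passed (limma adjusted p = 0.0268) and siTAZ2_siYAP1 did not. That siTAZ3_siYAP2 call was lost without control replicate 1, 2 or 3, and also without siTAZ3_siYAP2 replicate 1 or 2. Either of the latter leaves 1 array in that group, and the differences were 0.46 and 0.73. With both pairs averaged, NR0B2 rose by 0.47 against control (SE 0.11, 1.38-fold, limma adjusted p = 0.0302) and by 0.45 against the TAZ siRNAs (SE 0.096, limma adjusted p = 0.0446), the 1 gene of 38 that passed there (2.63%, against 0.747% of all genes). This averaged call against control was lost without control replicate 1, 2 or 3 or siTAZ2_siYAP1 replicate 1, 2 or 3 (limma adjusted p from 0.0512 to 0.155). The same call was also lost without siTAZ3_siYAP2 replicate 1, which leaves 1 array in that group, and the difference was then 0.40. Against the TAZ siRNAs it was lost in 15 of the 19 fits that leave out 1 array (0.0584 to 0.262, the highest without siTAZ3 replicate 2), and with those 4 groups fitted alone (0.37). Without the array labelled siTAZ2 replicate 3, where NR0B2 was lowest, the difference was 0.36 (limma adjusted p = 0.0117; 1.29% of all genes called).

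On top of TAZ knockdown, YAP siRNAs did not do to UGT2B10 what they did alone. In the combined groups UGT2B10 was at the level of the TAZ groups (log2 difference -0.07, 95% interval -0.20 to 0.07, limma adjusted p = 0.776), whereas YAP siRNAs alone raised it by 0.47. The test of that difference, the interaction, gave -0.54 (SE 0.094, 95% interval -0.74 to -0.34, limma adjusted p = 0.0386). It sets a difference within the later deposit against one within the earlier, so a YAP response that varies with deposit cannot be told apart from it. YAP1 was left at 20.2% and 23.4% of control in the combined groups, and at 15.1% and 15.3% with siYAP1 and siYAP2 alone. The combined groups also received 40 nM in total, against 20 nM for single YAP or TAZ siRNAs. UGT2B10 was the 1 gene of 38 that passed in the interaction (2.63%, against 0.125% of all genes). The call was lost in 15 of 19 fits that leave out 1 array (limma adjusted p from 0.0562 to 0.186, the highest without control replicate 1) and after cyclic loess between arrays (0.0561), while the value was -0.50 without the array labelled siTAZ2 replicate 3 (limma adjusted p = 0.013; 0.391% of all genes). By single pairs, siTAZ2_siYAP1 against siTAZ2 called none of the 38 genes with limma, where 0.219% of all genes were called, with 2 of 38 at an unadjusted p under 0.05 against 8.57% of all genes,, and siTAZ3_siYAP2 against siTAZ3 called ABCG2 (0.563% of all genes). Without the array labelled siTAZ2 replicate 3 these pairs called 0 genes (0.387% of all genes) and 3 (1.51%), the added ones being NR0B2 (0.43, limma adjusted p = 0.04) and CYP1A1 (0.72, limma adjusted p = 0.0421).

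**Figure D4:**
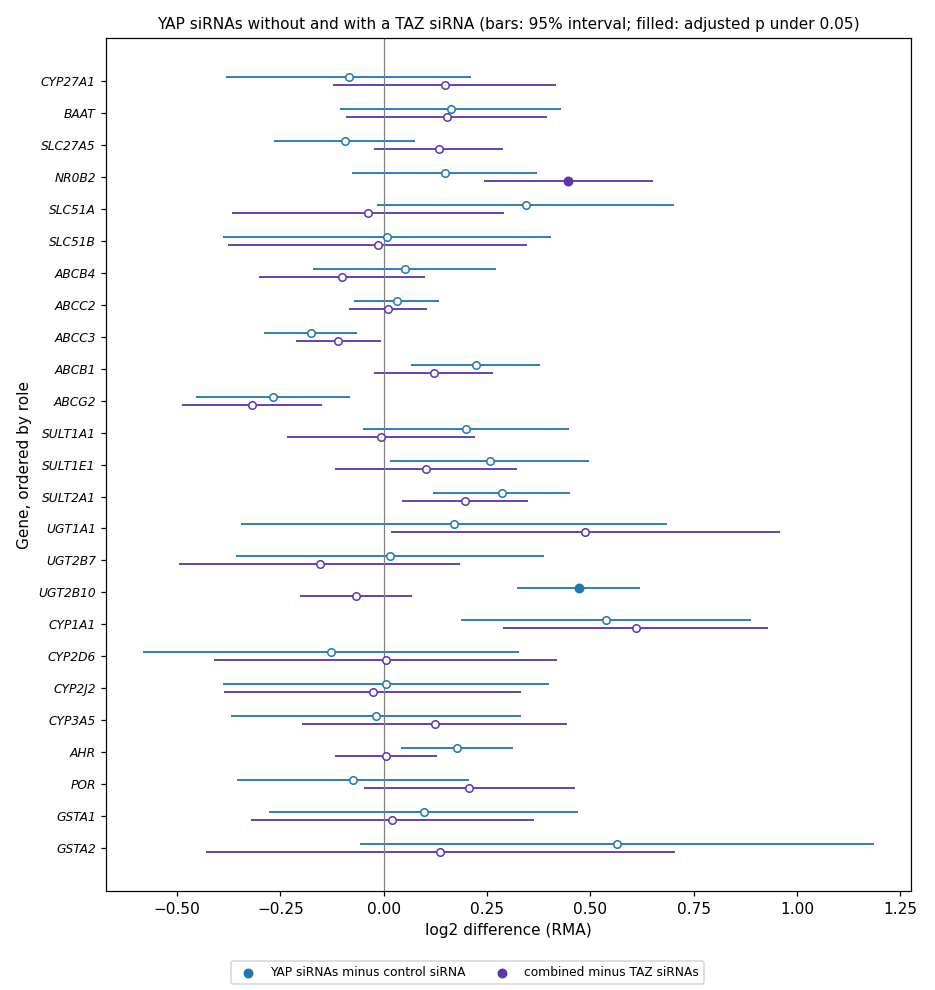
Log2 difference (horizontal axis) made by YAP siRNAs against the control siRNA and by the combined groups against the TAZ siRNAs, for the 25 genes above background (vertical axis, by role), with 95% intervals; filled points have an adjusted p under 0.05. UGT2B10 stands at 0.47 without and at -0.07 with a TAZ siRNA, and NR0B2 at 0.15 and 0.45.

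Of the bile acid synthesis and conjugation genes above background, none passed. CYP27A1, which starts the alternative pathway and oxidises the side chain, was abundant, between 9.72 and 10.60, with 0.26 in the combined groups (95% interval -0.05 to 0.56, limma adjusted p = 0.584). BAAT, which attaches glycine or taurine, lay between 5.76 and 6.50, and SLC27A5, the bile acid CoA ligase, between 5.88 and 6.27.

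No member of the listed CYPs of families 1 to 3 passed with all 19 arrays. CYP1A1, an AHR target that oxidises polycyclic hydrocarbons, read 6.79, 6.92 and 6.75 on the control arrays, 7.01, 7.35 and 7.35 with siYAP1 and 7.18, 7.42 and 7.84 with siYAP2. Its siTAZ2 readings were 7.09, 7.11 and 6.30, with siTAZ3 6.50 and 6.58, with siTAZ2_siYAP1 7.36, 7.44 and 7.21, and with siTAZ3_siYAP2 7.31 and 7.20. Every array with a YAP siRNA lay above the control arrays, and both siTAZ3 arrays lay below them. The difference with YAP siRNAs was 0.54 (SE 0.16, limma adjusted p = 0.155, and 0.0132 without the array labelled siTAZ2 replicate 3), and in the combined against the TAZ groups it was 0.61 (limma adjusted p = 0.0873, and 0.0517 without that array). AHR itself, the sensor, read 10.81, 10.60 and 10.57 with siYAP1 and between 10.11 and 10.50 on the other arrays. Its difference of siYAP1 from control was 0.31 (limma adjusted p = 0.0686, and 0.0269 without that array). CYP3A5, a polymorphic relative of CYP3A4, had its highest readings, 6.01 and 5.88, with siTAZ3_siYAP2 and ranged from 4.86 to 5.81 elsewhere. CYP2D6 (5.19 to 6.75), CYP2J2 (4.58 to 5.53) and POR (9.73 to 10.52) passed in no comparison, with or without that array.

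GSTA2, a glutathione transferase of the alpha class, had the widest range of group means on the list, 1.36, and a spread to match. It read 5.04, 4.66 and 5.30 on the control arrays, 4.97, 6.09 and 5.52 with siYAP1, 5.84, 5.60 and 5.35 with siYAP2, 6.17, 6.22 and 5.23 with siTAZ2 and 5.90 and 6.49 with siTAZ3. In the combined groups it read 5.33, 6.23 and 6.37 with siTAZ2_siYAP1 and 6.64 and 6.09 with siTAZ3_siYAP2. All 5 combined arrays lay above the control arrays, the lowest by little. The difference was 1.17 in the combined groups (SE 0.30, limma adjusted p = 0.056) and 1.03 with TAZ siRNAs (SE 0.30, limma adjusted p = 0.116), and these were 0.0163 and 0.0229 without the array labelled siTAZ2 replicate 3. GSTA1, its neighbour on the chromosome and a close copy, lay between 5.13 and 6.24 and passed in no comparison, and the files do not say how far a probe set tells these copies apart.

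Further genes of the same pathways were taken from 6 lists with 108 measured genes, also chosen with earlier results of these data known. With YAP siRNAs 1 of the 108 rose with all 19 arrays (0.926%, against 1.73% of all genes), AOX1 (aldehyde oxidase), by 0.56 (limma adjusted p = 0.000509). With the array labelled siTAZ2 replicate 3 left out, 7 rose (4.47% of all genes called): AOX1, AKR1D1, ACOX2, ATP8B1, UGT2A3, FMO5 and FOXA1. After TAZ knockdown 1 of 10 other bile acid enzymes rose, AKR1D1, the 5-beta-reductase of bile acid synthesis (0.76, limma adjusted p = 0.0148), and 2 of 14 genes of bile acid transport and signalling, ABCG5 (a sterol exporter, 0.43) and KLB (the FGF19 coreceptor, 0.45). Of 9 other CYPs CYP2U1 rose (0.46), of 31 other conjugation enzymes UGT2A3 rose (0.52, limma adjusted p = 0.0164) and TPMT, which methylates thiopurines, fell by 0.31, and of 23 oxidation and hydrolysis genes FMO5 (0.57) and AOX1 (0.32) rose. None of 21 xenobiotic regulators passed with all 19 arrays by limma. In all 7 rose and 1 fell (7.41%, against 1.97% of all genes). Leaving out the array labelled siTAZ2 replicate 3, 18 rose and 1 fell (4.69% of all genes called), and 3 of the regulators were then among them, FOXA1 (a pioneer factor of liver genes, 0.47, limma adjusted p = 0.000127), PPARGC1A (0.47, limma adjusted p = 0.0091) and PROX1 (0.31, limma adjusted p = 0.0251).

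In the combined groups 13 of these 108 genes rose and none fell with all 19 arrays, against 2.59% of all genes called. When the array labelled siTAZ2 replicate 3 was left out, 20 rose and 1 fell (6.17% of all genes called), the latter being NR5A2, a nuclear receptor that activates bile acid synthesis genes (log2 difference -0.35, limma adjusted p = 0.0344). The 13 were AKR1D1 (0.94, limma adjusted p = 0.00215) and ACOX2, the side chain oxidase (0.44), among 10 bile acid enzymes, ABCG5 (0.36) among 14 transport genes, CYP2U1 (0.43) among 9 CYPs, and UGT2A3 (0.48), GSTA4 (0.40) and MGST2 (0.28) among 31 conjugation enzymes. Of 23 oxidation and hydrolysis genes 5 rose, the largest being FMO5 (0.47) and AOX1 (0.39), followed by EPHX2 (0.37) and the carboxylesterase CES1 (0.29). Of 21 regulators PPARGC1A, a coactivator of hepatic metabolism, rose by 0.62 (limma adjusted p = 0.0056). No gene of the 6 lists passed in the combined against the TAZ groups by limma with all 19 arrays (0.747% of all genes called), and FOXA1 alone passed without the array labelled siTAZ2 replicate 3 (log2 difference -0.26, limma adjusted p = 0.0112; 1.29% of all genes called).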

How the data were processed

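The deposited table holds log2 values of 25582 probe sets on 19 biotin-labelled Affymetrix arrays, which the authors made with RMA per the submitters' processing notes. All 19 columns hold the same sorted values, so they were quantile normalized together. For array version, build and probe set definition the sources used here give nothing. Probe sets were named from GEO's platform annotation (24244 named, 1338 unnamed, 24195 matched to RefSeq GRCh38.p14); for 3 symbols with 2 probe sets the brighter was kept.

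One mean per group was fitted to 25579 genes from every array by limma (version 3.58.1, under R 4.3.3; lmFit, contrasts.fit, eBayes), in 16 contrasts, with no filter on dim genes and a threshold of 0.05 on the Benjamini-Hochberg adjusted p. The interaction is the mean over pairs of (pair minus its TAZ siRNA) minus (its YAP siRNA minus control). The fit was tested on simulated data. Precision is limited by the number of arrays, 2 or 3 per group. The members and the further lists were chosen with earlier results of these data known. Values on every array are given for members that passed in 1 of the first 4 comparisons (YAP, TAZ and combined against control, combined against TAZ), and other members where a sentence singles them out. List genes that passed with all arrays are named with their log2 difference alone, at most 4 per list and comparison by size; those named from the fit without siTAZ2 replicate 3 were chosen after their values were seen. Alternatives were an intensity trend, leaving out the dimmest 30% of genes, cyclic loess, fitting only the groups compared, array weights, a block by replicate number inside each deposit and the omission of single arrays.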

Additional observations from a re-analysis of the deposited data

Results flagged for a closer look

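UGT2B10 was marked because its response to YAP siRNAs differed between cells with and without a TAZ siRNA, by the interaction test of that difference: -0.54 on the log2 scale (limma adjusted p = 0.0386). Groups with a TAZ siRNA are of the later deposit and those without of the earlier, so a part of the deposit cannot be told apart. The call was lost in 15 of the 19 fits that leave out 1 array and after cyclic loess between arrays (limma adjusted p = 0.0561).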

How the results depend on the processing

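No call reversed under any alternative. Of 39 calls of a gene in a comparison, 19 held in all 19 fits that leave out 1 array, 20 were lost in some of them, and 14 were lost under some other alternative. Leaving out 1 array, the number of the 38 genes called ranged from 1 to 5 for YAP, from 1 to 4 for TAZ, from 3 to 9 for the combined groups, from 0 to 2 for combined against TAZ, from 2 to 5 for siYAP2 against siYAP1, from 0 to 4 for siTAZ3 against siTAZ2, from 1 to 4 between the combined pairs and from 0 to 1 in the interaction. Where a lone array was left in a group, it was assumed to vary like the other groups. With array weights the counts were 6 for YAP, 7 for TAZ, 8 combined, 3 for combined against TAZ, 6 for siYAP2 against siYAP1 and 7 for siTAZ3 against siTAZ2. With only the groups compared they were 2, 1, 9, 0 and 0 for YAP, TAZ, combined, combined against TAZ and siTAZ3 against siTAZ2. An intensity trend, or leaving out the dimmest 30% of genes, gave 0 for siTAZ3 against siTAZ2, and cyclic loess gave 0 in the interaction. Leaving out an array of a group that a comparison does not use changes the pooled spread and the adjusted p, and not the log2 differences. The cause of these changes was otherwise not tested.

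Same-numbered arrays did not deviate together (correlations from -0.11 to 0.12 over 9 pairs of the earlier deposit and from -0.28 to 0.23 over 13 of the later), so the numbers were not taken as pairs. A replicate block within each deposit gave 3 genes for YAP and 2 for combined against TAZ in place of 1 each, and ended none of the 39 calls. Groups of 2 or 3 arrays and 13 genes near background limit what could be detected.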

Other observations

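Neighbouring coding genes of some members, 17 in all, were looked up by position after the values were seen. Of these 2 passed with YAP siRNAs (1.73% of all genes called), 3 with TAZ siRNAs (1.97%) and 2 in the combined groups (2.59%), and 3 passed in each once the array labelled siTAZ2 replicate 3 was left out. UGT2A3, the next coding gene to UGT2B10, was 0.26 above control with YAP siRNAs (limma adjusted p = 0.32) and rose with TAZ siRNAs (0.52) and in the combined groups (0.48). CROT, which makes carnitine esters of medium-chain acids in peroxisomes and is the neighbour of ABCB4, rose by 1.01 with YAP siRNAs (limma adjusted p = 2.42e-06), by 0.69 with TAZ siRNAs (limma adjusted p = 0.00022) and by 0.90 in the combined groups (limma adjusted p = 1.17e-05), while ABCB4 itself differed by 0.05, 0.36 and 0.26 and passed in none of the 3. MTFMT, the mitochondrial formyltransferase beside SLC51B, rose by 0.61 with YAP siRNAs (limma adjusted p = 0.00568), and by 0.61 with TAZ siRNAs (limma adjusted p = 0.00866), and differed by 0.36 in the combined groups (limma adjusted p = 0.13). SLC51B differed from control by 0.01, 0.36 and 0.34 in these comparisons and passed in none of them with all arrays.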
